A study of Arabidopsis arenosa x Arabidopsis thaliana and Arabidopsis thaliana and Arabidopsis arenosa with 5 samples.

Results

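The genes described here lie together at the distal end of Arabidopsis chromosome 3, from locus AT3G62290 (ARFA1E) to locus AT3G63520 (CCD1). They were chosen by locus number, because most of them had little or no A. thaliana (T) transcript in A. suecica, so the low T values in that species are a description and carry no test. The locus range holds 142 of the 32313 genes in the parental tables, with 172 transcripts. In the allotetraploids, 64 of the 142 genes, with 82 transcripts, had separate values for the T transcript and the A. arenosa (A) transcript. All 64 were listed in F1, 63 of them in F8 and 61 in A. suecica.

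Messenger RNA was sequenced from rosette leaves taken before bolting. The groups were autotetraploid A. thaliana (ecotype Landsberg erecta), autotetraploid A. arenosa (Care-1), F1 resynthesized allotetraploids, F8 allotetraploids and A. suecica, a natural allotetraploid of the same 2 parental species. The A. thaliana plants had an age of 3 to 4 weeks and those of the other groups one of 6 to 7 weeks, so that for A. thaliana age and species cannot be told apart. All grew in a cycle of 16 h light at 22 °C and 8 h dark at 20 °C. Each parent and the F1 had 3 replicate columns, while F8 and A. suecica had 1 library each. The sources used here do not say whether the replicates were separate plants, so the p-values measure the spread between these columns, which may be technical.

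In an allotetraploid, genes can be present as homoeologous copies, one set from each parental species. Transcripts of the copies can be counted apart where their sequences differ. The share of T in T + A gives, for each gene, how much of its transcript was assigned to the A. thaliana copy. Whether both copies of each gene are present in the genome of A. suecica was not tested.

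In the TAIR10.1 assembly of A. thaliana, 135 of the 142 genes were found, and they span chr3:23051544-23456078, which is 404.5 kb. CCD1 ends 3752 bases before the assembled end of the chromosome. The next listed gene with both alleles on the proximal side, AT3G62260, ends 10875 bases before the start of ARFA1E. The 3 short A. thaliana sequences from the NCBI TAIR10.1 assembly printed here are shown because they lie beside genes named in the results. The first is the stretch between AT3G62280 and ARFA1E at chr3:23051310-23051543 on the plus strand, with the tRNA gene AT3G62285 in capitals. The T share in A. suecica was 49.1% at AT3G62260 and 0% at ARFA1E. Where in the 10875 bases between these genes it changes is unknown, since no gene there had allele values. The second separates AT3G62400 from CP12-2, neighbours that both had T transcript in A. suecica, at chr3:23090822-23090943 on the plus strand. The third holds the 250 bases before the start of ABCC14, at chr3:23195918-23196167 on the minus strand, with the motif CACGTG (a G-box) in capitals. Among these genes, ABCC14 had the A. suecica total furthest above F1 on the log2 scale.
Before ARFA1E: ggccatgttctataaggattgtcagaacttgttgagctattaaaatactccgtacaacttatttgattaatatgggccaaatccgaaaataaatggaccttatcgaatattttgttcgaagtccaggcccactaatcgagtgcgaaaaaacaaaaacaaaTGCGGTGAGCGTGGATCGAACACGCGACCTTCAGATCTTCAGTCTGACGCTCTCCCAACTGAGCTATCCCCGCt
Between AT3G62400 and CP12-2: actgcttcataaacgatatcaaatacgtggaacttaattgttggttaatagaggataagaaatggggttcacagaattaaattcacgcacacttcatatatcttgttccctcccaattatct
Before ABCC14: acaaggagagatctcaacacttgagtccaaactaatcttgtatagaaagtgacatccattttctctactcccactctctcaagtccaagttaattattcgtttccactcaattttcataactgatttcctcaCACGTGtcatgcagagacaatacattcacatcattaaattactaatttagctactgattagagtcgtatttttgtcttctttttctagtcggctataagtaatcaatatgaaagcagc
CACGTG, which reads the same on both strands, was searched in the 250 bases before each start. It was found before 5 of the 61 searched genes with allele values (8.197%) and before 1756 of 26641 protein-coding genes listed (6.591%). The match before ABCC14 is a description of the letters and not evidence of a bound factor. It lies in the A. thaliana sequence, whereas ABCC14 in A. suecica was listed at T 0 and A 178. No A. arenosa or A. suecica sequence was searched.

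All values below are RPKM (reads scaled to transcript length and to the mapped reads of the library) as the authors deposited them, and the total of a gene is T + A. Over all genes, leaf transcripts were high in the parents: RBCS1A, a small subunit of Rubisco, ranged from 1170 to 13000 RPKM and the light-harvesting gene LHCB1.3 from 4110 to 23800. Flower markers (AP1, AP3, PI, AG and SEP3) reached at most 1.35, and the root genes RHD6 and PHT1;1 were at 0 and at most 0.0336. SCR, used as a root marker but also known from leaf bundle sheath, was at 6.47 to 10.6. The depth of the libraries is unknown from RPKM, so no counting interval can be given for any single value. Every F1 allele value was above 0, so that table cannot show a T of 0. In whole leaves, fewer cells of a type and less RNA per cell cannot be told apart.

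T and A transcripts were about equal in F1 and F8, whereas in A. suecica nearly all transcript was A. In A. suecica, 52 of the 61 listed genes had a T share under 10%, where 3.18% of all genes did. Of these, 47 were listed at a T of exactly 0 (1.77% of all genes), and 5 had some T. These values are of the 1 transcript that stands for each gene. Other isoforms of AUD1 (AT3G62830) and AGG1 (AT3G63420), both counted at 0, had T shares of 0.333% and 5.33% in A. suecica. In F8, 1 of 63 genes was under 10% (2.09% of all genes), and in F1 none of 64, taking the mean of the replicates (0.473% of all genes). The counts in A. suecica restate the choice of the genes. The median T share was 52.3% in F1, with 50.2%, 53.8% and 53.2% in the replicates, 52.1% in F8 and 0% in A. suecica. The genes next to them on the proximal side, AT3G61050 to AT3G62280, had medians of 49.3% in F1, 51.4% in F8 and 51.9% in A. suecica, where none of 59 listed was under 10%.

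**Figure D1:**
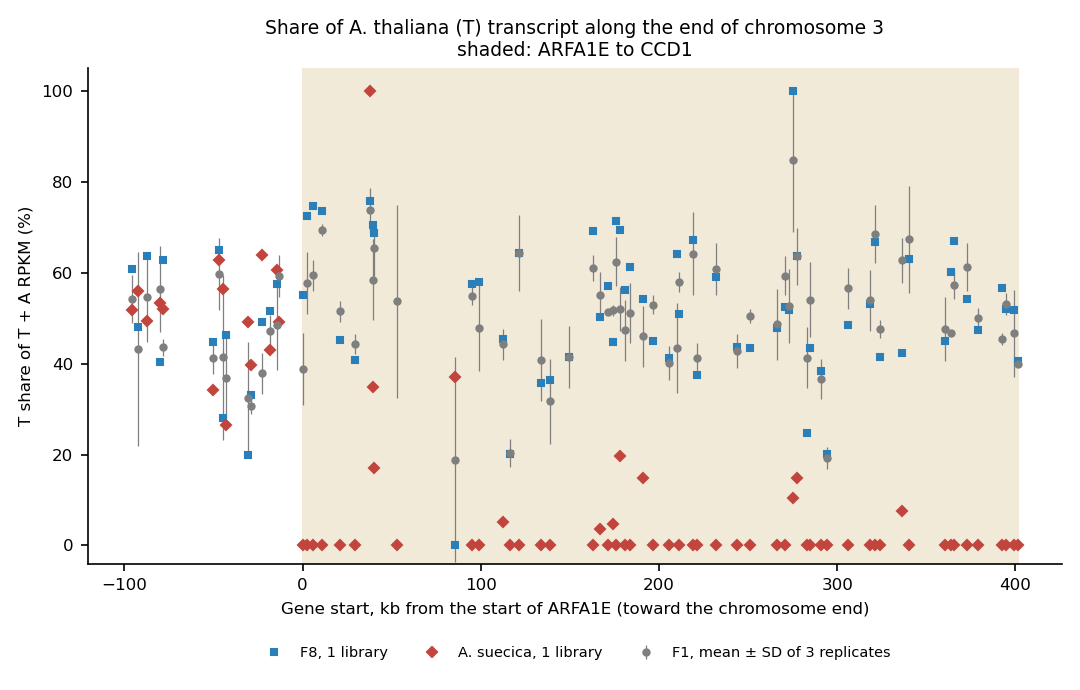
Share of T in T + A (percent, y axis) of listed genes with a position in TAIR10.1, against the distance of their start from the start of ARFA1E in kb (x axis), for F1 (mean ± SD of 3 replicates), F8 and A. suecica. AT3G62422, AT3G62895 and AT3G63330 have no position there and are not drawn, but the counts and medians given here include them. A. suecica drops from 49.1% at AT3G62260 to 0 at ARFA1E and stays under 10% for 52 of 61 listed genes, while F1 and F8 lie around medians of 52.3% and 52.1%.

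The edge on the proximal side fell between 2 neighbouring listed genes. The last 5 listed genes before it had T shares in A. suecica of 39.7% (AT3G62200, a putative endonuclease), 64.0% (AT3G62220, a protein kinase), 42.9% (AT3G62240, a RING/U-box protein), 60.6% (UBQ5, a ubiquitin gene) and 49.1% (AT3G62260, a protein phosphatase 2C). The first 5 inside, ARFA1E, DUF7 (AT3G62300, an agenet domain protein), AT3G62310 (an RNA helicase), AT3G62330 (a zinc knuckle protein) and AT3G62360 (a carbohydrate-binding fold protein), all had T at 0 in A. suecica. Their mean T shares in F1 were 38.8% ± 7.91, 57.6% ± 6.83, 59.4% ± 3.42, 69.3% ± 1.35 and 51.5% ± 2.35 (SD, n = 3), and their shares in F8 55.1%, 72.5%, 74.6%, 73.5% and 45.1%. At the distal end, the last 5 listed genes (AT3G63460, EMB3126, TTA2, AT3G63510 and CCD1) were likewise at 0 T in A. suecica, with 39.9% to 53.1% in F1 and 40.7% to 56.7% in F8. At locus numbers after CCD1, BB (AT3G63530) and AT3G63540, a thylakoid lumen protein gene, had no allele values in any table. AT3G63540 was nevertheless abundant in both parents at 242 ± 115 and 274 ± 24.8 RPKM (SD, n = 3). The positions of these genes on the chromosome were not examined. The longest stretch of consecutive listed genes under 10% T in A. suecica ran over 19 genes with a position in TAIR10.1, from AT3G63170 to AT3G63520; AT3G63330, which has no position there and T at 0, falls between them by locus number. Outside the locus range, the longest such stretch of genes with a position held 3. The genes were chosen for low T in A. suecica, so the edge and the longer stretch inside restate that choice and are no separate result.

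Genes with chloroplast roles were among the most abundant of the range. Of the 8 genes listed for this role, 7 had allele values, and 5 of these had T at 0 in A. suecica, beside 47 of all 61 listed members. The role lists are short and the genes were chosen for low T, so such counts show no difference between roles. APG1 (AT3G63410), the methyltransferase that acts in plastoquinone and tocopherol synthesis, had T of 58.7, 104 and 95.4 and A of 66.0, 120 and 109 RPKM in the F1 replicates. In F8 it had T 172 and A 114, and in A. suecica T 0 and A 258. Both alleles were thus present at similar levels in the F1, and A alone was present in A. suecica. EMB3126, a ribosomal protein of the L1p family, had T of 41.5, 66.0 and 63.9 and A of 53.0, 76.2 and 75.3 in F1, T 101 and A 76.9 in F8, and T 0 and A 142 in A. suecica. RRF, the chloroplast ribosome recycling factor, had T of 20.0, 35.4 and 28.2 and A of 43.1, 52.7 and 46.2 in F1, T 50.8 and A 81.7 in F8, and T 0 and A 62.5 in A. suecica. All 3 F1 replicates had more A than T for these genes, and the A. suecica A value was above every F1 A value. APG3, the plastid peptide chain release factor, went from a mean T of 12.7 ± 2.30 (SD, n = 3) in F1 to T 20.2 in F8 and T 0 in A. suecica, with A at 18.8 ± 0.870, 28.9 and 35.1. FAP1, a fatty acid binding protein of the plastid stroma, had T 5.45 ± 1.55 in F1, 5.21 in F8 and 0 in A. suecica, with A at 7.96 ± 2.75, 15.9 and 17.3. CP12-2 and CSP41A are described with the genes that had T in A. suecica. The remaining gene, OEP6, an outer envelope protein, was in no allele table, although it reached 248 to 651 RPKM in A. thaliana and 430 to 1005 in A. arenosa.

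The 4 hormone and carotenoid genes listed in A. suecica all had T at 0, beside 47 of all 61 listed members. CCD1, which cleaves carotenoids to volatile apocarotenoids, had T of 29.1, 29.5 and 53.8 and A of 43.0, 43.9 and 83.3 in the F1 replicates, T 50.2 and A 73.2 in F8, and T 0 and A 244 in A. suecica. A exceeded T in every F1 replicate, and the A. suecica A value was above all F1 totals. TIR1, the F-box auxin receptor, had a mean T of 15.1 ± 2.0 and A of 21.5 ± 2.53 (SD, n = 3) in F1, T 19.3 and A 32.3 in F8, and T 0 and A 53.6 in A. suecica. IPT3, which makes cytokinin precursors, had T 5.17 ± 1.99 and A 5.82 ± 3.45 in F1, T 3.68 and A 4.02 in F8, and T 0 and A 27.1 in A. suecica. CKX6, which breaks cytokinins down, had T 3.67 ± 0.721 and A 2.38 ± 0.783 in F1, T 5.38 and A 4.56 in F8, and T 0 and A 3.02 in A. suecica. IPT3 and CKX6 act in opposite directions on cytokinin. Their totals in the 1 A. suecica library lay on opposite sides of the F1 mean, and a link between them was not tested. Of the CKX6 transcript, 91.48% of the bases overlap another locus, AT3G63445, so its values may hold reads of that locus. The other 3 genes listed for this role, AT3G63210 among them, had no allele values.

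Of the 4 trafficking and autophagy genes listed in A. suecica, 2 had T at 0, beside 47 of all 61 listed members. ARFA1E, a small GTPase of vesicle budding, was the most abundant of the listed genes of the range in A. suecica: its T was 83.4, 78.6 and 111 and its A 95.7, 122 and 251 in F1, T 133 and A 108 in F8, and T 0 and A 671 in A. suecica. AT3G63460, a WD-40 repeat protein, had T 7.61 ± 1.53 and A 7.70 ± 2.14 (SD, n = 3) in F1, T 8.06 and A 8.98 in F8, and T 0 and A 32.2 in A. suecica. ATG18a, needed for autophagosome formation, was at T 0.725 and A 18.7 in A. suecica, a T share of 3.73%. RANGAP1, the RAN GTPase activating protein, had T 4.14 ± 0.317 and A 3.81 ± 1.04 in F1 and T 4.72 and A 4.41 in F8, and was not listed in A. suecica.

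Of 5 genes listed for RNA handling and translation, 3 had T at 0 in A. suecica, beside 47 of all 61 listed members. They were AT3G62310, AT3G62840 (a small nuclear ribonucleoprotein) and MBD4 (a methyl-CpG-binding domain protein). AT3G62310 had T 8.88 ± 1.35 and A 6.16 ± 1.68 (SD, n = 3) in F1, T 12.3 and A 4.19 in F8, and A 19.2 in A. suecica. AT3G62840 had T 15.4 ± 0.920 and A 15.1 ± 3.66 in F1, T 23.2 and A 14.7 in F8, and A 12.3 in A. suecica. DRB4, the double-stranded RNA-binding partner of DICER-LIKE proteins, was low throughout, at T 1.82 ± 0.597 and A 1.70 ± 0.578 in F1 and T 0.246 and A 4.90 in A. suecica.

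Both cell wall genes listed in A. suecica had T at 0 in the transcript that stands for the gene, beside 47 of all 61 listed members. AUD1, a UDP-glucuronic acid decarboxylase, had T 8.85 ± 0.803 and A 9.97 ± 1.82 (SD, n = 3) in F1, T 7.68 and A 6.01 in F8, and A 24.5 in A. suecica. Another AUD1 isoform had a T share of 0.333% in A. suecica. Of the AUD1 transcript, 44.47% of the bases overlap other loci. GATL7, a putative galacturonosyltransferase, had T of 8.81, 28.0 and 19.3 in F1, T 13.8 in F8 and T 0 with A 20.1 in A. suecica. Among signalling genes, the G protein gamma subunit gene AGG1 (AT3G63420) and the protein kinase gene MRK1 (AT3G63260) had T at 0 in A. suecica, with A of 5.81 and 22.2. Their F1 T means were 14.1 ± 6.16 and 16.1 ± 3.13. These values are of the transcripts that stand for the genes, and another AGG1 isoform had a T share of 5.33% in A. suecica. Of 5 redox genes only AT3G62930, of the thioredoxin superfamily, had allele values, with T 2.81 ± 0.396 and A 3.86 ± 1.58 in F1, T 2.78 and A 1.56 in F8, and no entry in A. suecica.

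In A. suecica, 14 of the 61 listed genes had T above 0, and 9 had a T share of 10% or more. The member just inside that threshold was CSP41A at 10.4% and the one just outside BIL4 (a Bax inhibitor-1 family gene) at 7.54%. The others under 10% with some T were AT3G62630 (5.20%, T 2.68), DRB4 (4.79%), ATG18a (3.73%) and AT3G62940 (0.103%, T 0.00545). The genes with T did not form 1 block. AT3G62400, CP12-2 and BZIP53 held places 7, 8 and 9 among the listed genes from the proximal edge, starting 38.1, 39.4 and 40 kb from the start of ARFA1E, and CSP41A and MIRO2 were neighbours at 275.3 and 277.4 kb. AT3G62560, AT3G62820 and AT3G62870 stood singly at 85.7, 177.8 and 191.0 kb, with genes at T 0 on both sides of each.

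AT3G62400, annotated as a cytochrome c oxidase subunit gene, went the other way from its neighbours. For isoform AT3G62400.2, which stands for the gene here, T was 32.8, 50.2 and 38.3 and A 15.5, 14.8 and 12.2 in the F1 replicates. It had T 21.7 and A 6.94 in F8, and T 10.7 and A 0 in A. suecica. Isoform AT3G62400.1 had totals of 14.4, 3.65 and 0.200 in F1 and T 18.5 and A 5.80 in F8, and was not listed in A. suecica. How reads were divided between the isoforms is unknown, so changes in the level of AT3G62400.2 may not be those of the gene. Every library with both alleles had more T than A, and A. suecica had T alone, a T share of 100%. CP12-2, whose small protein binds Calvin cycle enzymes in the chloroplast stroma, had T of 166, 151 and 208 and A of 76.7, 122 and 196 in F1, T 290 and A 121 in F8, and T 125 and A 234 in A. suecica. More T than A was seen in all F1 replicates and F8, and less T than A in A. suecica, at 34.8%. BZIP53, a transcription factor that pairs with group C bZIP proteins, had T of 15.6, 14.7 and 11.1 and A of 11.1, 6.82 and 4.87 in F1, T 5.30 and A 2.42 in F8, and T 1.07 and A 5.26 in A. suecica, a share of 16.9%. AT3G62422 carried the same values as BZIP53 in all tables and counts as 1 of the 9; without it, 60 genes were listed in A. suecica, of which 52 were under 10% T.

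AT3G62560, a Ras-related small GTP-binding protein gene, and CSP41A, a chloroplast RNA-binding ribonuclease gene, had the widest spread of the log2 ratio of A to T between the F1 replicates. T of AT3G62560 was 18.9, 5.02 and 0.111 in the F1 replicates and 0 in F8, while its A was 24.0, 35.4 and 48.3 in F1 and 55.2 in F8. It was the only gene of the range with T at 0 in F8, and in A. suecica it had T 15.6 and A 26.4, the highest T share after AT3G62400 (37.1%). CSP41A showed the mirror image in F1 and F8, with T of 96.1, 156 and 171 and A of 0.299, 25.5 and 78.9 in F1, and T 216 and A 0.0981 in F8. In A. suecica it had T 24.8 and A 214. For both genes the order of T and A in F8 was that of every F1 replicate, and the order in A. suecica was the same as in F8 for AT3G62560 and the opposite for CSP41A.

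The other 3 genes at 10% or more had roughly equal alleles or an excess of T in F1. AT3G62870, of the ribosomal protein L7Ae family, had T of 59.7, 81.5 and 85.7 and A of 95.9, 87.6 and 81.4 in F1, T 146 and A 123 in F8, and T 15.2 and A 87.6 in A. suecica (14.8%). AT3G62820, an invertase and pectin methylesterase inhibitor gene, had T 9.94 ± 0.945 and A 9.22 ± 1.17 (SD, n = 3) in F1, T 19.3 and A 8.49 in F8, and T 6.58 and A 27.0 in A. suecica (19.6%). MIRO2, a calcium-binding GTPase of mitochondria, had T 7.37 ± 1.04 and A 4.23 ± 0.960 in F1, T 6.13 and A 3.5 in F8, and T 1.93 and A 11.1 in A. suecica (14.8%). In A. suecica, A exceeded T in each of these genes.

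**Figure D2:**
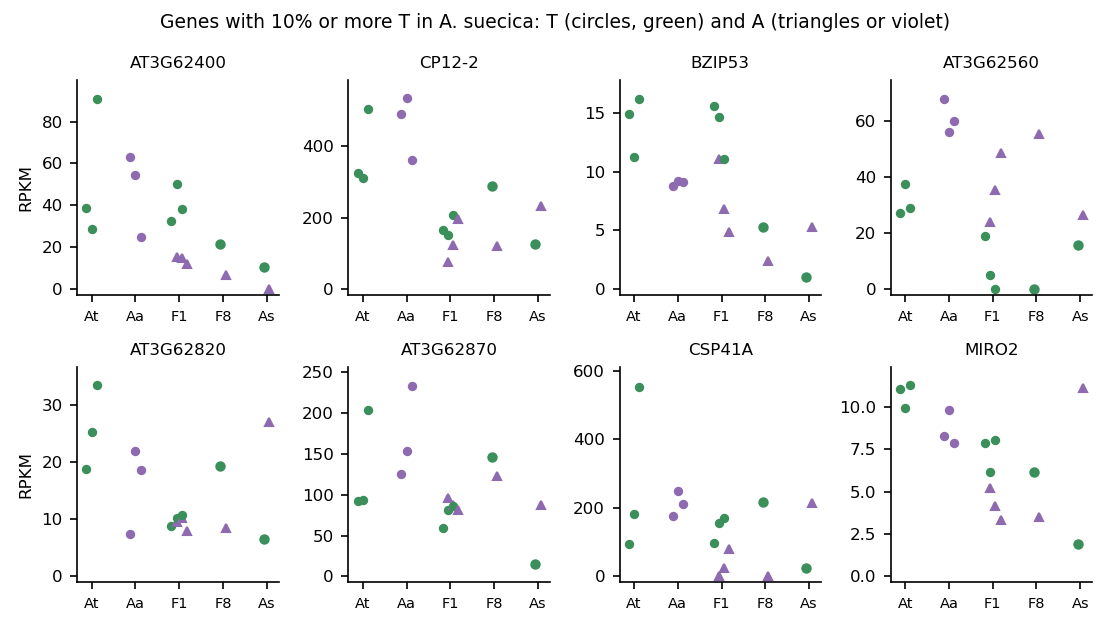
RPKM (y axis) of T and A in A. thaliana (At), A. arenosa (Aa), F1, F8 and A. suecica (As) for 8 genes with a T share of 10% or more in A. suecica; parents and F1 show 3 replicates each. A. suecica has T alone for AT3G62400 (10.7 against 0), and more A than T for the other 7, such as CP12-2 (T 125, A 234) and CSP41A (T 24.8, A 214).

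Genes with T in A. suecica were compared with those at 0 for features of their sequence, as a description. None of the 13 with a reference sequence shared an exact stretch of 60 bases, the shortest read length, with a transcript of another locus, and among those at 0 this held for 2 of 45 (AT3G62460 and BGLU8). Overlap of at least 10% of the transcript with a neighbour's exons was found for 2 of 13 and 7 of 45. The median F1 T share was 58.2% for the 14 genes with T and 51.4% for the 47 at 0, and the median F1 total 22.8 and 16.2 RPKM.

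Isoforms of a gene gave nearly the same T share. In F1, 17 genes had at least 2 listed isoforms, whose T shares differed by a median of 0.909 percentage points. In F8 the median difference was 0.863 points over 15 genes, and in A. suecica it was 0 over 15. The widest difference was at AGG1, where AT3G63420.1 had mean T shares of 57.3% ± 3.22 and AT3G63420.2 67.2% ± 2.96 (SD, n = 3) in F1. In F8 these isoforms were at 67.0% and 73.3%, and in A. suecica at 0% and 5.33%, the latter from T 0.611 and A 10.9. AT3G62840.1 and AT3G62840.2 had 51.1% ± 6.63 and 56.3% ± 5.74 in F1, 61.2% and 66.5% in F8, and 0% in A. suecica. DRB4 isoforms ranged from 51.7% to 55.9% in F1 and from 1.78% to 4.79% in A. suecica. Isoforms share most of their reads, so they do not give independent values.

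Summed over genes, the total in A. suecica was above that of each F1 replicate, in sums to which abundant genes contribute most. ARFA1E alone had 671 RPKM in A. suecica and totals of 179, 200 and 362 in the F1 replicates. Gene by gene, 30 of 60 compared lay above all 3 F1 totals, 10 within their range and 20 below. AT3G62422 repeats the values of BZIP53 in the sums, and no sum over all genes is set beside them. The 60 genes listed in F1, F8 and A. suecica summed to 2009, 2346 and 2681 RPKM in the F1 replicates, to 2809 in F8 and to 3234 in A. suecica. Of the A. suecica sum, 208 was T and 3026 A; in F8 1621 was T and 1188 A. The parental sums of the same genes were 1841, 2098 and 3267 in A. thaliana and 2595, 2877 and 2833 in A. arenosa. The A. suecica sum was also above every A. arenosa replicate, and below the highest A. thaliana replicate.

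**Figure D3:**
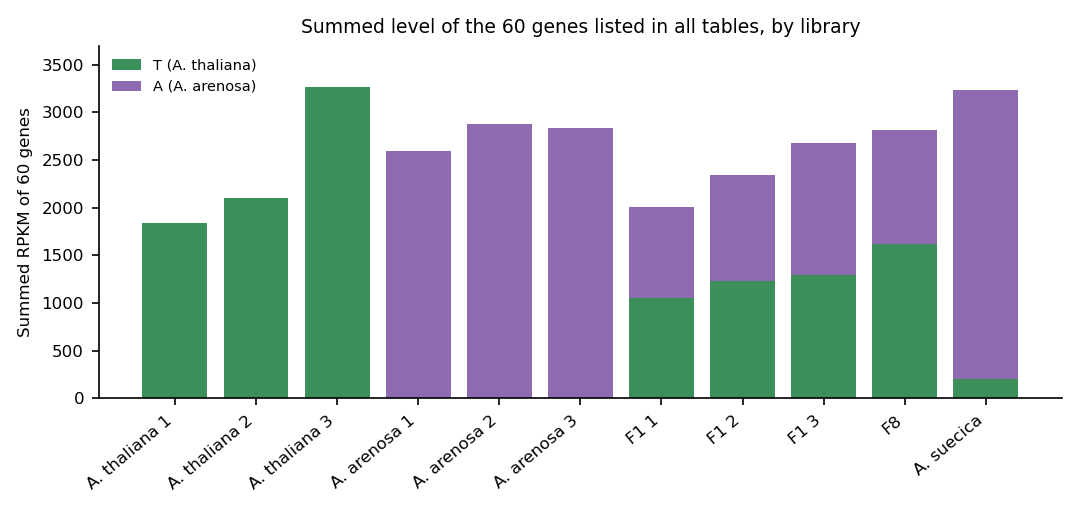
Summed RPKM (y axis) of the 60 genes listed in all tables, in each library (x axis), divided into T and A. T is 208 of 3234 RPKM in A. suecica and 1621 of 2809 in F8, while the F1 totals lie between 2009 and 2681.

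Gene by gene, the differences of totals are given on the log2(RPKM + 1) scale, which understates changes of low genes, and without a test, since A. suecica had 1 library. Of the 61 genes listed in A. suecica, 60 reached 5 RPKM there or in the F1 mean. The median of A. suecica total minus mean F1 total was 0.19 over these 60 and 0.21 over all 10480 genes compared. At least 2-fold higher than F1 were 9 genes (12.9% of all genes) and at least 2-fold lower 6 (8.8% of all genes). The A. suecica total was above all 3 F1 totals for 30 of the 60 (48.3% of all genes) and below all of them for 20 (27.1% of all genes). For the 46 compared genes with T at 0, the median was 0.26 and 26 lay above all F1 totals, 5 within their range and 15 below. For the 14 genes with some T the median was 0.08. Against the mid-parent value (the mean of the parents' log2 values) the median was 0.42 over the members and 0.42 over all genes. Against the A. arenosa parent it was 0.20 and 0.27, with 10 members at least 2-fold higher (15% of all genes) and 4 lower (7.46% of all genes). Against F8, 5 of 59 members were at least 2-fold higher (13.2% of all genes) and 7 lower (9.36% of all genes), with a median of 0.12 beside 0.22. The medians over all genes compared were thus also above 0, and what gives this was not tested. Centred on the median of all genes, the members' median against F1 was -0.03. After centring, 10 of the 60 members were at least 2-fold lower, beside 1266 of all 10480 genes. At least 2-fold higher were then 6 members, beside 903 of all genes.

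The A allele alone differed more. A. suecica A minus mean F1 A had a median of 1.18 over the members and 0.18 over all genes. At least 2-fold higher were 37 of 60 (14% of all genes) and at least 2-fold lower 1 (11.9% of all genes), and the A value was above all 3 F1 A values for 47 (43.5% of all genes). Where T is 0 the A value is the total, so these counts follow from the totals and the choice of the genes and are no separate result.

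**Figure D4:**
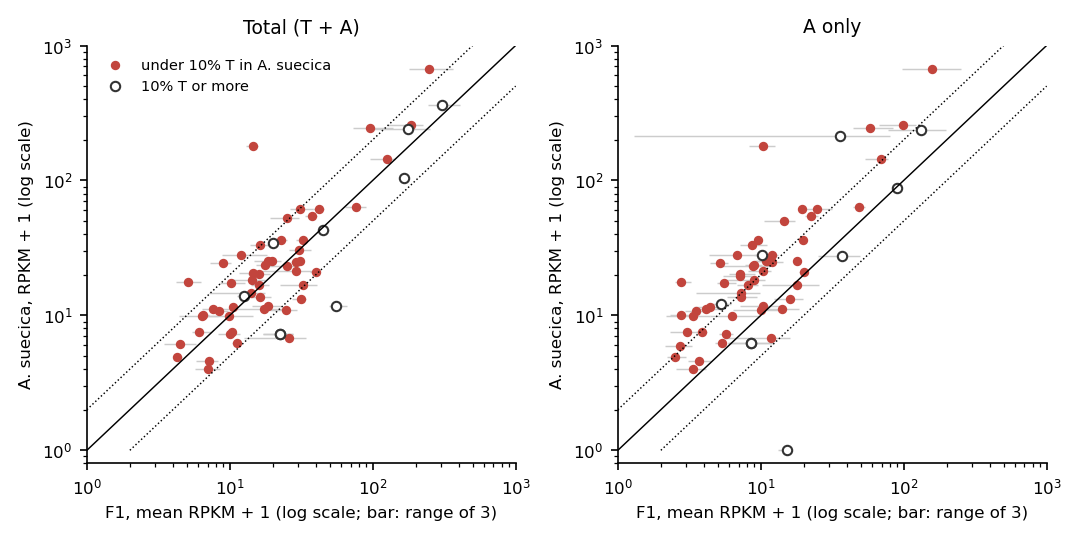
RPKM + 1 in A. suecica (y axis) against the F1 mean (x axis, horizontal bar: range of the 3 replicates), both on log scales, for the total (left) and A alone (right); the solid line is equality and dotted lines are 2-fold. Totals scatter around equality (median log2 difference 0.19), whereas most A values lie above it (median 1.18); open circles are the 9 genes with 10% T or more.

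The single genes with the highest A. suecica totals relative to F1 were all at 0 T there. ABCC14 (AT3G62700), a transporter of the multidrug resistance-associated subfamily, had totals of 14.8, 12 and 14 in the F1 replicates, 24.3 in F8 and 178 in A. suecica, 3.62 above F1 on the log2 scale. In A. thaliana it was at 8.32, 10.8 and 27.2 and in A. arenosa at 13.0, 9.42 and 18.1, so that A. suecica stood above every other library. AT3G62460, a putative endonuclease, was 1.82 above F1 (total 4.08 ± 1.09, SD, n = 3, against 16.7). ARFA1E was 1.51 above F1 (247 ± 100 against 671), and AT3G63270, annotated as a nuclease, 1.48 (7.92 ± 1.45 against 23.6). The lowest were AT3G62400 (log2 difference -2.24), AGG1 (-1.80), BZIP53 (-1.58) and AT3G62422, which shares its values. The value of AT3G62400 is from isoform AT3G62400.2, and AT3G62400.1 was not listed in A. suecica. AGG1 totals were 30.4, 33.0 and 11.5 in F1, 6.92 in F8 and 5.81 in A. suecica, so both later libraries lay below the lowest F1 replicate. BZIP53 totals were 26.7, 21.5 and 16.0 in F1, 7.72 in F8 and 6.34 in A. suecica, again both below every F1 replicate.

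F8 stayed close to F1. The allele that was higher in F8 differed from that in all 3 F1 replicates for 9 of 63 genes (9.14% of all genes). The median of F8 total minus F1 total was -0.05 over 61 members and -0.00051 over all genes, with 1 member at least 2-fold higher (2.27% of all genes) and 4 lower (4.72% of all genes). For the A allele in F8 the median was -0.02, with 1 member higher (2.38% of all genes) and 5 lower (6.32% of all genes).

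The parents were compared across all genes with limma, counting a gene as called at a 2-fold difference and a Benjamini-Hochberg adjusted p under 0.05 over 12739 genes. Of 72 members tested, 4 were higher in A. arenosa (10.6% of all genes) and 3 higher in A. thaliana (4.21% of all genes). AT3G62530, an ARM repeat protein gene, was at 54.4, 85.2 and 192 RPKM in A. thaliana and 2.26, 1.78 and 0.231 in A. arenosa (log2 difference -5.44 ± 0.55 SE, adjusted p = 0.00105). BGLU7, a beta-glucosidase gene, was at 0.159, 0.416 and 0.175 in A. thaliana and 7.87, 7.18 and 7.21 in A. arenosa (2.76 ± 0.25 SE, adjusted p = 0.000733). The parents did not overlap for either gene, both calls held under all 12 alternatives, and neither gene had allele values. The other calls were AT3G62930 (1.86 ± 0.48 SE, adjusted p = 0.0418), the RING finger gene ATL5 (1.12, adjusted p = 0.0376), AT3G62630 (1.01, adjusted p = 0.0136), the uncharacterized AT3G63390 (-1.20 ± 0.31 SE, adjusted p = 0.0394) and GPX5, a glutathione peroxidase gene (-1.02 ± 0.21 SE, adjusted p = 0.0200). Each of these 5 was lost when single libraries were left out. The members called higher in A. arenosa numbered 7 without A. thaliana replicate 3, 2 without A. thaliana replicate 1 or A. arenosa replicate 3, and 1 without A. thaliana replicate 2 or A. arenosa replicate 2, while those higher in A. thaliana fell to 1 without A. thaliana replicate 1, A. thaliana replicate 2 or A. arenosa replicate 2. Centred on the median of all genes, which was 0.31 toward A. arenosa, 1 member was higher and 4 lower.

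Some large parental differences did not pass. PLP9, a patatin-like gene, differed by 1.36 (adjusted p = 0.233), with 2.95, 3.76 and 14.6 in A. thaliana and 6.00, 20.9 and 31.6 in A. arenosa. AT3G63052, an uncharacterized gene, was listed at 0 in all A. thaliana replicates and at 169, 3.89 and 1.90 in A. arenosa, so 1 library gave nearly all of its level (adjusted p = 0.120). AT3G63210, a zinc-finger gene, was at 21.6, 17.0 and 12.4 in A. thaliana and 11.5, 4.65 and 2.77 in A. arenosa (-1.45, adjusted p = 0.0709). The 7 chloroplast genes with allele values were each highest in A. thaliana replicate 3, as at APG1 with 92.9, 204 and 437 RPKM. Without that replicate, 7 members were called higher in A. arenosa and 4 higher in A. thaliana.

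Of the 142 genes, 78 had no allele values. The larger parental mean was under 1 RPKM for 43 of these and at least 5 RPKM for 14, and 16 were at 0 in all 6 parental replicates.

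In F1, T and A were compared within each replicate with limma over 10221 genes. Of 61 members tested, 2 had more A by at least 2-fold (8.48% of all genes) and 3 more T (4.41% of all genes). At any size of difference, 6 had more A (19.1% of all genes) and 12 more T (11.8% of all genes). These counts became 3 and 3 without F1 replicate 2, 4 and 6 without F1 replicate 3, and 3 and 2 with the alleles taken as separate groups. AT3G62650, an uncharacterized gene, had T of 6.04, 5.62 and 6.20 and A of 21.3, 19.7 and 30.7 (log2 A over T 1.81 ± 0.17 SE, adjusted p = 0.00265). PLP9 had T of 1.76, 5.00 and 2.91 and A of 8.46, 17.7 and 12.9 (1.75 ± 0.15 SE, adjusted p = 0.00235). In both genes A exceeded T in 3 of 3 replicates with no overlap, and F8 had the same order, with T 4.39 and A 17.5 for AT3G62650 and T 6.66 and A 26.6 for PLP9. With more T were CSP41A (-3.30 ± 0.88 SE, adjusted p = 0.0364), AT3G62400 (-1.44 ± 0.18 SE, adjusted p = 0.00455) and MRK1 (-1.03 ± 0.19 SE, adjusted p = 0.0123), each in 3 of 3 replicates. CSP41A was not called with a pseudocount of 0.1 (adjusted p = 0.0616), neither it nor MRK1 was called with the alleles taken as separate groups (adjusted p = 0.124 and 0.0771), and MRK1 was at -0.82 without F1 replicate 1, which is under 2-fold; that replicate left out gave 6 members with more T. AT3G62560 had a ratio of 2.80 ± 0.86 SE but an adjusted p of 0.0540, with A above T in 3 of 3 replicates. ABCC14 (0.98 ± 0.24 SE, adjusted p = 0.0274) and AT3G62330 (-0.95 ± 0.15 SE, adjusted p = 0.00875) passed the p threshold at less than 2-fold.

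**Figure D5:**
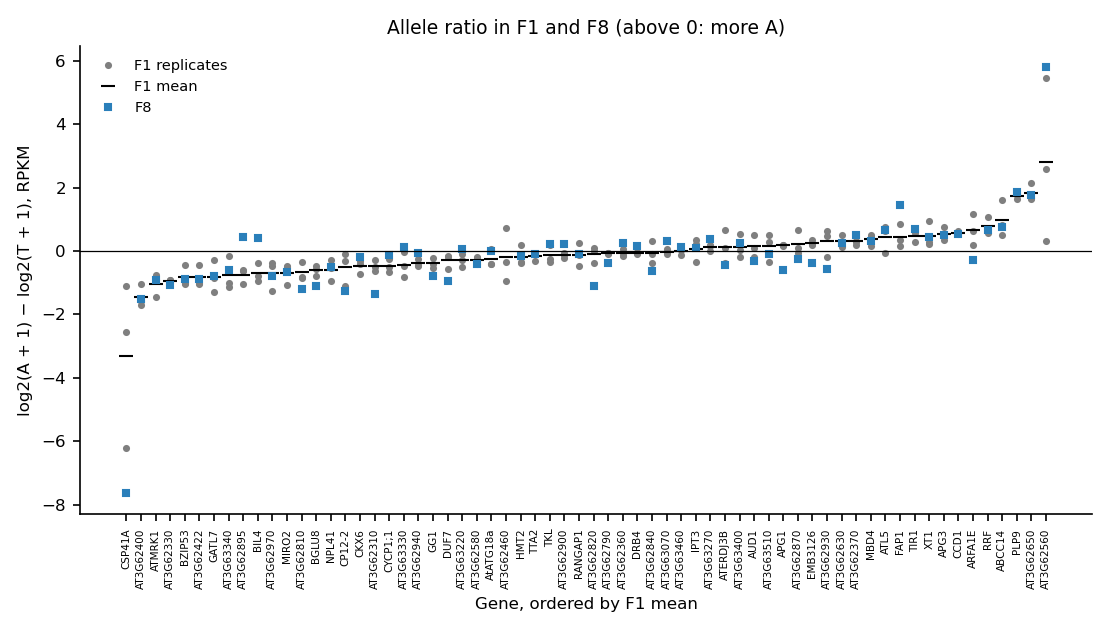
Log2 ratio of A to T (y axis, RPKM + 1 in each) for the 64 genes with F1 allele values, ordered by the F1 mean (x axis); grey points are the F1 replicates, bars their mean and blue squares F8. CSP41A at -3.30 and AT3G62560 at 2.80 have the widest spread between replicates, and F8 lies beyond the replicates in the same direction for both.

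F1 totals were compared with the mid-parent value over 10415 genes. Of 62 members tested, 1 was called higher in F1 (0.47% of all genes) and none lower (0% of all genes). An unadjusted limma p under 0.05 was found for 11 of the 62 members, beside 2039 of the 10415 genes. The count of members was 6 without F1 replicate 2 (1281 of all genes) and 17 without A. thaliana replicate 3 (2880 of all genes). The called gene was XT1 (AT3G62720), a xyloglucan xylosyltransferase gene, at 10.1, 6.92 and 14.8 RPKM in A. thaliana, 12.2, 17.8 and 16.3 in A. arenosa, and totals of 34.9, 38.8 and 33.1 in F1 (log2 difference 1.44, adjusted p = 0.0392). All F1 totals lay above all parental values. F8 was back within the parental range at 13.3, and XT1 was not listed in A. suecica. The adjusted p rose to between 0.051 and 0.159 when any single library except A. thaliana replicate 3 was left out, and was 0.103 after centring on the median of all genes and 0.0552 with the mid-parent value as the log2 of the mean, each of which ends the call.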

How the data were processed

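Rosette leaf mRNA of 5 groups was sequenced with reads of 60 to 83 bp, per the labels' protocols. The deposited tables hold RPKM per transcript for the parents and RPKM of each allele for the allotetraploids, computed by the authors; reads were placed on TAIR 9, per the submitters' processing notes, while no source used here gives the aligner or how reads were divided between alleles. In F8 and A. suecica, T + A has at most 5 decimals where T alone does not. Those tables list only totals above 2 RPKM. Library depth is unknown from RPKM.

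From these values, 1 transcript stood for each gene: the one with the highest mean among those in all tables, or among all where none was; ribosomal RNA genes were left out. Tests were run with limma 3.58.1 in R 4.3.3 (trend) on log2(RPKM + 1), over genes reaching 5 RPKM, with Benjamini-Hochberg adjustment over all of them; a call needs 2-fold and adjusted p under 0.05. F8 and A. suecica, with 1 library each, were compared by size without a test. Python 3.11.15, numpy 2.4.6, pandas 2.3.3 and matplotlib 3.10.9 did the rest. On simulated data, genes changed 2.83-fold and 5.66-fold were recovered at 38% and 69% for the parents over 12739 genes, at 66% and 68% for the F1 alleles over 10221, and at 74% and 94% for the mid-parent comparison over 10415. Gene names, positions and sequences are from TAIR10.1; no coordinate was converted.

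The genes, their role lists and the tests were chosen with earlier results of these data known. Named with values were all genes with 10% T or more in A. suecica, the 5 listed genes on each side of each end, the 8 highest F1 totals, the 4 largest parental differences and F1 ratios in each direction, the 4 highest and 4 lowest A. suecica totals relative to F1, the 2 highest and 2 lowest of each role list, and the 3 genes with the widest isoform differences (exceptions: none); further genes were named with their values known. The alternatives tried were other pseudocounts and filters, centring, all transcripts, other T share thresholds, a replicate block, another mid-parent value, and leaving out each replicate; leaving out AT3G62422 was added after seeing the data. Replicate numbers stand in the file headers only.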

Additional observations from a re-analysis of the deposited data

Results flagged for a closer look

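For 9 of the 63 genes listed in F1 and F8 (14.3%, beside 9.14% of all genes), all 3 F1 replicates had more of one allele and the F8 library had more of the other; the difference between F1 and F8 was not tested. Values are log2 A over T on RPKM + 1. ARFA1E was at 0.196 to 1.16 in F1 and -0.293 in F8, APG1 at 0.167 to 0.204 and -0.592, and EMB3126 at 0.205 to 0.344 and -0.386, so these 3 had more A in F1 and more T in F8. The other 6 had more T in F1 and more A in F8: AT3G62895 was at -0.757 on average in F1 and 0.453 in F8, and BIL4 at -0.706 and 0.41. Smaller differences were seen at AT3G62900 (-0.129 and 0.218), DRB4 (-0.0607 and 0.167), AT3G63330 (-0.452 and 0.137) and AT3G63220 (-0.285 and 0.0593). Each F8 value is from 1 library, so its spread is unknown.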

How the results depend on the processing

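Of the alternative values of summary results, 140 stayed near the reported value and 45 moved; of single-gene results 260 kept their call, 45 lost it, 14 gained one and none changed direction. The 52 genes under 10% T in A. suecica stayed within 1.5 times of that count under all alternatives, and 2 genes were under 20% T in F1. Parental calls toward A. arenosa (4) became 7 with a filter of 1 RPKM, 1 after centring and 2 with the replicate block, and 1 to 7 leaving out 1 replicate; those toward A. thaliana (3) became 1 to 4. F1 ratio calls toward T (3) became 3 to 6 leaving out 1 replicate, and 1 with no replicate block; those toward A (2) were 3 without any 1 replicate and 2 with no replicate block. With no replicate block, the members past the adjusted p at any size went from 6 to 3 toward A and from 12 to 2 toward T. The call of XT1 went to 0 genes after centring, with the mid-parent as the log2 of the mean, and leaving out 1 replicate (0 to 1). Under the replicate block 1 member was still called against the mid-parent value, while the calls over all genes went from 49 to 130. The numbers were not taken to pair the columns, since deviations of same-numbered columns correlated at 0.0154, -0.1104 and 0.1394 between the parents and at 0.5295, -0.2524 and 0.2371 between A. thaliana and F1. Between A. arenosa and F1 they correlated at 0.2773, 0.3072 and 0.2841, each column best with its own number, a hint from the data that those columns may be paired. The median of A. suecica minus F1 totals (0.19) became 0.198 with a pseudocount of 0.1 and 0.207 with a filter of 1 RPKM or without AT3G62422. That median was -0.0257 after centring, 0.161 over all transcripts and 0.170 to 0.237 leaving out 1 replicate. Members 2-fold lower (6) became 10 after centring, while the count over all 10480 genes went from 922 to 1266. For A, the median (1.18) became 1.3, 1.15, 0.999 and 1.20 with a pseudocount of 0.1, a filter of 1 RPKM, centring and without AT3G62422, and 1.18 to 1.23 leaving out 1 replicate, with 1 to 2 genes 2-fold lower. F8 totals 2-fold higher (1) became 3 over all transcripts and 0 to 1 leaving out 1 replicate; F8 A 2-fold higher (1) became 2 with a pseudocount of 0.1, 3 over all transcripts and 1 to 2 leaving out 1 replicate, and 2-fold lower (5) became 3 to 7. The cause was not tested. Depth is unknown, so what a T value of 0 allows cannot be given.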
